A study of Homo sapiens with 4 samples.

Results

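The 10 genes described here encode the proteins that cut and rejoin antigen receptor gene segments. They were taken by name from the 20665 genes of the deposited expression table, and each name matched 1 row. The cells were NALM6, a human leukemia line of B cell precursors, grown in RPMI medium with serum. In 2 libraries (vehicle) the cells had received DMSO, the solvent, for 45 min. In the other 2 (AICAR) the drug was given at 15 mM over 45 min to cells that had spent 24 h without glucose. Cells phosphorylate AICAR, a nucleoside, to a mimic of AMP that activates AMPK, their energy sensor. Whether the vehicle cells also went without glucose is not stated, so AICAR and glucose withdrawal cannot be told apart as the source of a difference. The labels name replicates without saying that they were separate cultures, so the p-values measure the spread between these libraries, which may be technical.

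Developing B cells assemble an immunoglobulin gene by V(D)J recombination. The RAG1 and RAG2 proteins form a recombinase that cuts DNA at recombination signals beside the V, D and J segments. The broken ends are then joined by the classical end joining pathway, which every cell type uses for double strand breaks. In that pathway the Ku heterodimer binds the ends and recruits a large kinase, a nuclease opens the hairpins, and a ligase complex seals the join. Terminal transferase adds nucleotides at the join in lymphoid precursors.

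The libraries held 32318376 to 36769116 expected counts. Of the 12 pre-B cell markers listed, 10 were in the table, and all 10 were counted in every group, at a summed FPKM (fragments corrected for transcript length and library depth) of 4061 to 4133 with vehicle and 4375 to 4474 with AICAR. Of these 10, 6 rose by edgeR at an adjusted p under 0.05, against 19.4% of all tested genes, and none was called lower, against 19.7%. CD22 and BLNK, neither of them called, were lower in FPKM in both AICAR libraries, although the summed FPKM was higher. CD79A, a signalling subunit of the B cell receptor, had the highest log2 fold change of the 10, 0.27. T cell markers (2 of 9 in the table) summed to at most 0.21 FPKM in any library. Myeloid and erythroid markers (7 of 10 in the table) summed to 1.82 to 2.26 with vehicle and 2.88 to 3.16 with AICAR. The part of these marker differences in the results below was not tested. In bulk RNA, fewer cells of a type and less RNA per cell cannot be told apart.

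By counts, transcripts of both recombinase genes, the hairpin nuclease and the ligase were lower with AICAR. Those of Ku and its kinase were higher. Of the 10 genes, 4 fell (RAG1, RAG2, DCLRE1C and LIG4), 3 rose (XRCC5, XRCC6 and PRKDC) and 3 (DNTT, XRCC4 and NHEJ1) did not pass the test. The test was edgeR's quasi-likelihood test on the counts, with a threshold of 0.05 on the Benjamini-Hochberg adjusted p over all 13626 genes tested. By the same rule 39.1% of all tested genes were called, 19.4% higher and 19.7% lower, so a called gene was common in this comparison. The median log2 fold change was -0.01 over the 10 genes and -0.002 over all tested genes. The fitted changes ran from -0.67 for LIG4 to 0.51 for PRKDC. The values of the AICAR and vehicle libraries did not overlap for 9 of the 10, a state shared by 69.2% of all tested genes. With libraries scaled by total counts alone, which made 69.3% of all calls lower in place of 50.4%, the same numbers of the 10 genes were higher (3) and lower (4). In the authors' deposited table, 7 of the 10 had a q-value under 0.05, and they were the 7 called here. In FPKM, RAG2, XRCC5 and XRCC6 kept their direction but not their calls (limma adjusted p = 0.065, 0.654 and 0.0525 with 0.1 added).

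**Figure D1:**
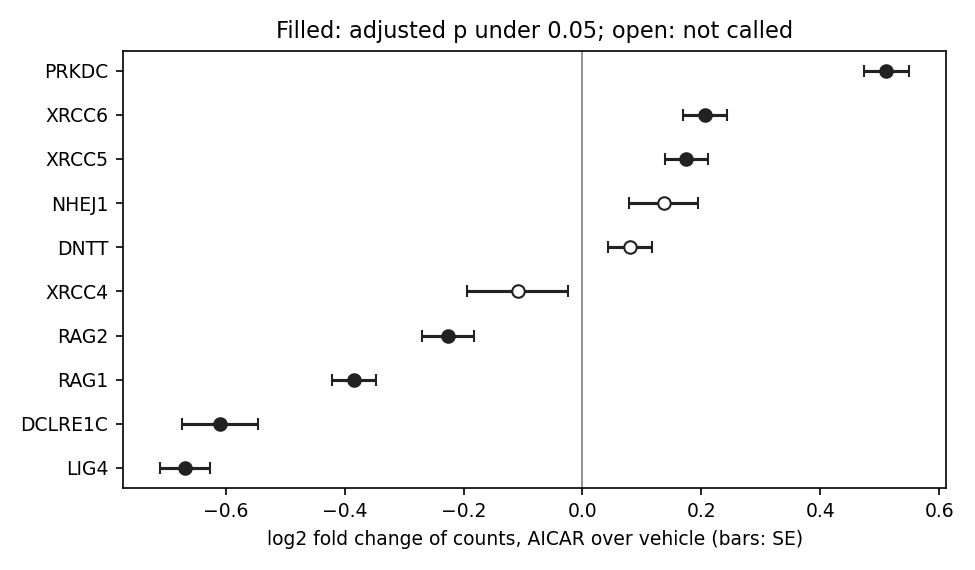
Log2 fold change of the expected counts, AICAR over vehicle, for the 10 genes (points: fitted value, bars: SE, 2 libraries a group). Filled points passed an adjusted p of 0.05. The changes run from -0.67 for LIG4 to 0.51 for PRKDC, with 4 genes called lower and 3 called higher.

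The 10 genes differed widely in level. On the FPKM scale, which corrects for transcript length, XRCC6 was the highest with vehicle at 336 ± 10.1 and DCLRE1C the lowest at 10.6 ± 0.46 (SD, n = 2), a 31.8-fold range. XRCC5 had 242 ± 9.71 FPKM and DNTT 168 ± 5.73, followed by RAG1 at 62.7 ± 2.67 and RAG2 at 58.4 ± 3.42 (all SD, n = 2), whose difference was about the size of the SDs. XRCC6, XRCC5 and DNTT were each above 96.4% or more of the protein-coding genes in mean level, and the differences between them exceeded their SDs. LIG4 and PRKDC stood side by side with vehicle, at 23.9 ± 0.94 and 23.1 ± 0.95 FPKM (SD, n = 2), a difference within the spread of their libraries. With AICAR they were apart, at 14.4 ± 0.68 for LIG4 and 31.5 ± 1.78 for PRKDC (SD, n = 2). NHEJ1 at 13.3 ± 0.06 and XRCC4 at 12.6 ± 0.93 FPKM with vehicle (SD, n = 2) did not differ beyond their spread. With AICAR, NHEJ1 at 14.3 ± 0.16 FPKM lay within the spread of LIG4, and RAG1 at 47.5 ± 0.23 lay within that of RAG2 at 48.6 ± 3.72 (SD, n = 2).

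**Figure D2:**
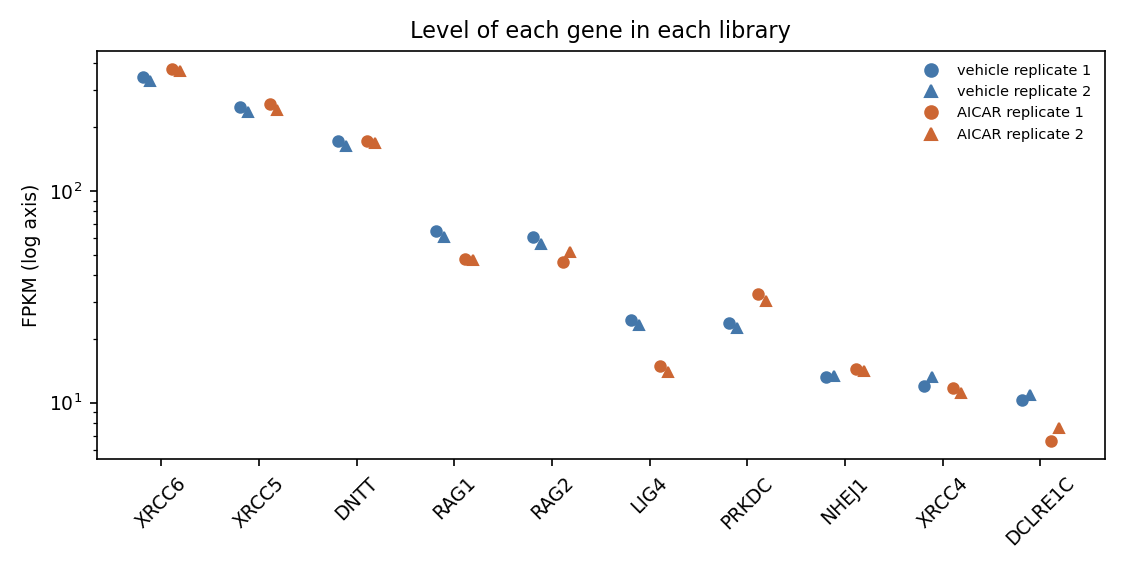
FPKM of each gene (log axis) in each of the 4 libraries, ordered by the vehicle mean. Levels with vehicle run from 10.6 for DCLRE1C to 336 for XRCC6, and LIG4 and PRKDC, alike with vehicle, are apart with AICAR.

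RAG1 (ENSG00000166349, chromosome 11) encodes the catalytic subunit of the recombinase. Its level was 392 and 388 CPM (counts relative to the TMM-scaled library size) in the vehicle libraries and 299.6 and 298 CPM in the AICAR libraries. Both AICAR libraries lay below both vehicle libraries, by far more than replicates differed. RAG1 fell 1.31-fold (log2 fold change -0.38, SE 0.04, adjusted p = 1.44e-05 by edgeR).

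RAG2 (ENSG00000175097, chromosome 11) encodes the partner that reads a histone mark and targets the complex. It had 94.1 and 91.3 CPM with vehicle and 76.8 and 81.7 CPM with AICAR. The groups did not overlap, and the AICAR libraries were further from each other than the vehicle libraries were. RAG2 fell 1.17-fold (log2 fold change -0.23, SE 0.04, adjusted p = 0.0017 by edgeR). On the FPKM scale its difference was of like size, -0.26, and was not called (limma adjusted p = 0.065 with 0.1 added to each value).

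The ratio of RAG1 to RAG2 in FPKM was 1.06 and 1.09 with vehicle and 1.04 and 0.92 with AICAR. The log2 ratio was lower by 0.14 with AICAR, against an SD of 0.12 between the AICAR libraries, and without AICAR replicate 2 it was lower by 0.05. A permutation test of 2 libraries against 2 cannot give an exact two-sided p below 0.333, which is the value obtained. The loci of RAG1 and RAG2 overlap on opposite strands in GENCODE 29. The sources used here do not give whether the counting used strand, so reads from the shared stretch may not be assigned with certainty. C11orf74, which overlaps RAG2 on the other strand, had at most 12 counts in a library.

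Annotated start regions of these genes are shown because RAG1 and RAG2 fell together while the windows held for them were of unlike composition. Which start these cells used was not tested, so a window may lie away from the start in use. The RAG1 window was taken at its outermost annotated start, within 1000 bases of the start of the gene TRAF6 on the opposite strand. The composition and motifs given for RAG1 may therefore not be those of the start in use. The sequences are RefSeq windows on GRCh38.p14 (the authors' build was hg19), read 5′ to 3′ on the gene's strand, cut to the longest part before the start that holds no GENCODE 29 exon. Capitals mark a GC box (GGGCGG) or a CCAAT box (CCAAT) on either strand. The stretches are chr11:36510273-36510352 (plus strand) for RAG1, chr11:36598280-36598486 (minus strand) for RAG2 and chr10:14954433-14954682 (minus strand) for DCLRE1C.
RAG1: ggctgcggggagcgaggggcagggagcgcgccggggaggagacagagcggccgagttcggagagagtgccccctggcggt
RAG2: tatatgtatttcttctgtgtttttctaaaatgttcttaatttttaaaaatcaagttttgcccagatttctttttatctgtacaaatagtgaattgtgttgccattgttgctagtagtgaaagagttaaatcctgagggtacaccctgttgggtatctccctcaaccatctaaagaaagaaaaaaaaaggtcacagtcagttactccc
DCLRE1C: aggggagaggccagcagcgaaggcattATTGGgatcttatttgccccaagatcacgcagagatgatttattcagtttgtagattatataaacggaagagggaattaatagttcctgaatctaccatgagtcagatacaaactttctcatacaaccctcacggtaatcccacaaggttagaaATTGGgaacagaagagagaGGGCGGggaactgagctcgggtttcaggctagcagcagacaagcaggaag

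The RAG1 stretch of 80 bases was 76.2% G or C, the RAG2 stretch of 207 bases 33.3% and the DCLRE1C stretch of 250 bases 45.6%. Over the full windows of 300 bases, 250 before and 50 after the start, RAG1 had 32 CpG pairs, DCLRE1C 11 and RAG2 none, and the median window of the 35116 in the table was 58.7% G or C. Windows were held for 8 of the 10 genes, and the most upstream start was used. The search covered 7 motifs on both strands: the GC box, CCAAT box, an ETS motif (CCGGAAGT), a CRE core (TGACG), an E box (CAGGTG), a FOXO motif (GTAAACA) and an NRF1 core (GCATGCGC). No motif of the 7 was in the RAG2 window. Among the genes that fell, RAG1 and DCLRE1C held a GC box, which 45.0% of all windows hold, DCLRE1C a CCAAT box (34.6%), and LIG4 the ETS motif (4.14%) and the NRF1 core (3.05%). XRCC6, which rose, held a GC box, a CCAAT box, the CRE core (24.6%) and the NRF1 core. Of the genes not called, DNTT held the CCAAT box and the E box (20.6%). XRCC4 and NHEJ1, also not called, each held a GC box, and XRCC4 a CCAAT box too. No window held the FOXO motif (3.42%). No motif was present in the windows of all 4 genes that fell.

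DNTT (ENSG00000107447, chromosome 10) encodes terminal transferase, the polymerase that adds untemplated nucleotides to coding ends and a standard marker of lymphoblastic leukemia. It had 313 and 311 CPM with vehicle and 332 and 328 CPM with AICAR. The AICAR libraries were slightly above the vehicle libraries, a difference that did not pass (log2 fold change 0.08, SE 0.04, adjusted p = 0.111 by edgeR). On the FPKM scale the groups overlapped, with 172 and 164 with vehicle and 173 and 168 with AICAR.

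XRCC6 (ENSG00000196419, chromosome 22) encodes Ku70, a subunit of the ring that threads onto a broken end. It had 666 and 667 CPM with vehicle and 766 and 771 CPM with AICAR, and both AICAR libraries were higher. XRCC6 rose 1.15-fold (log2 fold change 0.21, SE 0.04, adjusted p = 0.00113 by edgeR). On the FPKM scale the difference was 0.15 and was not called (limma adjusted p = 0.0525 with 0.1 added). Its pseudogenes XRCC6P1 and XRCC6P2 had at most 1.0 and 19.2 counts in a library, against 23512 or more for XRCC6.

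XRCC5 (ENSG00000079246, chromosome 2) encodes Ku80, the other subunit of the ring. Its level was 649 and 649 CPM with vehicle and 736 and 731 CPM with AICAR. XRCC5 rose 1.13-fold in counts (log2 fold change 0.18, SE 0.04, adjusted p = 0.00299 by edgeR), but did not pass in FPKM. Its FPKM was 249 and 235 with vehicle and 256 and 240.1 with AICAR, so the groups overlapped, and the FPKM difference was 0.04 on the log2 scale (limma adjusted p = 0.654 with 0.1 added).

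The gap between the scales can be followed in the table. Dividing a gene's expected count by its FPKM and by the library's total gives the transcript length that the FPKM used, which for a gene with several isoforms is an average weighted by their estimated amounts. This apparent length of XRCC5 was 2719 and 2764 bases with vehicle and 2838 and 2952 bases with AICAR, 5.6% longer on average and with no overlap between groups. Of the 6863 genes with at least 500 counts in every library, 24.7% had a rise or fall in apparent length of that size or more, 8.61% a rise, and 44.5% had no overlap between groups. The median change was -0.29%. The apparent length of XRCC6 was between 2020 and 2028 bases in all 4 libraries. The XRCC5 to XRCC6 ratio in FPKM was 0.72 and 0.71 with vehicle and 0.68 and 0.65 with AICAR, lower by 0.11 on the log2 scale, while in expected counts it was lower by 0.03. The exact two-sided permutation p was again 0.333, the smallest that 2 libraries against 2 can give.

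**Figure D3:**
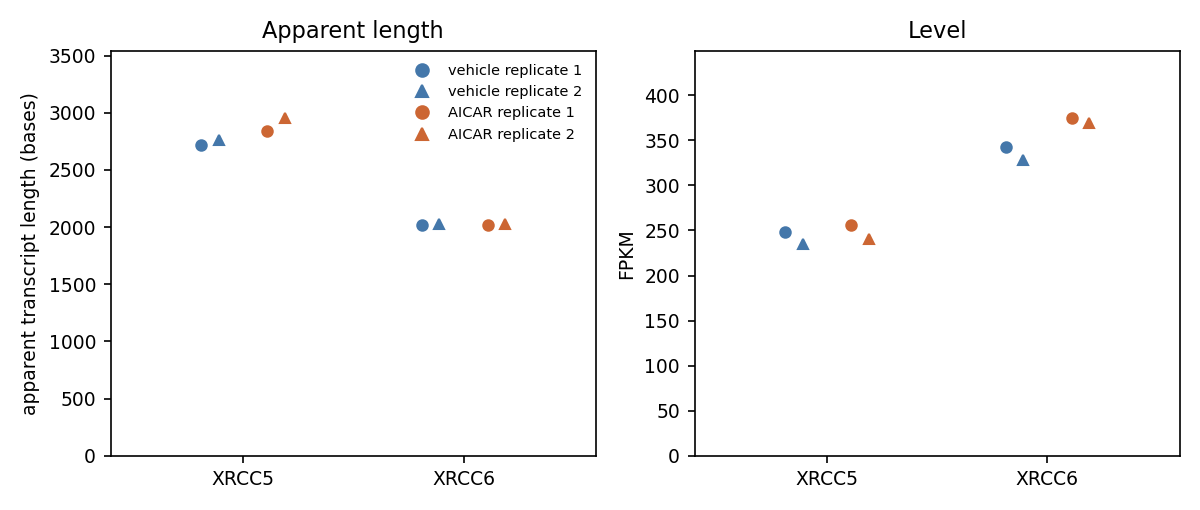
Apparent transcript length in bases (left) and FPKM (right) of the Ku genes XRCC5 and XRCC6 in each of the 4 libraries. The apparent length of XRCC5 is 2719 and 2764 bases with vehicle and 2838 and 2952 with AICAR, while that of XRCC6 stays between 2020 and 2028, and the FPKM of XRCC5 overlaps between the groups.

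PRKDC (ENSG00000253729, chromosome 8) encodes DNA-PKcs, the giant kinase that Ku recruits and that activates the hairpin nuclease. Its level was 282 and 278 CPM with vehicle and 406 and 393 CPM with AICAR. The AICAR libraries were higher by far more than replicates differed, and FPKM gave the same picture, with 23.8 and 22.4 against 32.8 and 30.2. PRKDC rose 1.42-fold (log2 fold change 0.51, SE 0.04, adjusted p = 2.13e-06 by edgeR). With an apparent length of 12234 to 12621 bases it belonged to the 93 tested protein-coding genes over 8000 bases. Of those 93, 39.8% rose and 14.0% fell, with a median log2 fold change of 0.08, and PRKDC had the 11th highest value among them. The shortest class, up to 1000 bases, also had more rises than falls (35.1% and 9.04%, median 0.13), and in the class of 2000 to 4000 bases 17.6% rose and 28.0% fell, with a median of -0.04. The part of transcript length in the difference of PRKDC was not tested.

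DCLRE1C (ENSG00000152457, chromosome 10) encodes Artemis, the nuclease that opens the hairpins RAG leaves on coding ends. It had 25.7 and 26.9 CPM with vehicle and 17.8 and 16.7 CPM with AICAR. The groups were well apart, and DCLRE1C fell 1.53-fold (log2 fold change -0.61, SE 0.06, adjusted p = 2.84e-05 by edgeR). Its expected counts in the AICAR libraries were nearly equal (567 and 559), yet its FPKM was 6.63 and 7.61, since its apparent length was 2646 bases in AICAR replicate 1 and 2132 in AICAR replicate 2. With vehicle the apparent length was 2609 and 2470 bases, so the lengths of the groups overlapped. SUV39H2, a histone methyltransferase gene whose locus overlaps DCLRE1C on the other strand, also fell, by 0.17 on the log2 scale (edgeR adjusted p = 0.0107), a call lost with DESeq2 (adjusted p = 0.0859). The pseudogene DCLRE1CP1 had at most 1.19 counts in a library.

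LIG4 (ENSG00000174405, chromosome 13) encodes the ligase that seals the join and had the largest fall of the 10 genes. It had 94.9 and 93.4 CPM with vehicle and 60.7 and 57.9 CPM with AICAR. The groups were far apart, and replicates lay close together. LIG4 fell 1.59-fold (log2 fold change -0.67, SE 0.04, adjusted p = 5.06e-07 by edgeR). Its apparent length was 4026 to 4028 bases in every library, and its FPKM fell likewise, from 23.9 ± 0.94 to 14.4 ± 0.68 (SD, n = 2).

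XRCC4 (ENSG00000152422, chromosome 5) encodes the scaffold that holds and stabilises the ligase. Its level was 16.1 and 18.9 CPM with vehicle and 16.8 and 15.7 CPM with AICAR, and the groups overlapped. In FPKM they did not, with 11.9 and 13.3 against 11.7 and 11.1. The fitted log2 difference in counts was -0.11 with an SE of 0.09 (adjusted p = 0.349 by edgeR). Without vehicle replicate 1, the lower of the vehicle libraries, it was -0.22 and passed (edgeR adjusted p = 0.0347), and without vehicle replicate 2 it was -0.002 (edgeR adjusted p = 0.991). The call on XRCC4 depended on which vehicle library was kept.

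NHEJ1 (ENSG00000187736, chromosome 2) encodes XLF, a structural relative of XRCC4 that helps to align the ends. It had 22.9 and 22.9 CPM with vehicle and 25.7 and 24.7 CPM with AICAR. The AICAR libraries were higher, a difference that did not pass (log2 fold change 0.14, SE 0.06, adjusted p = 0.0831 by edgeR). The 3 genes of the ligation step thus showed a called fall in LIG4 only, and the LIG4 to XRCC4 ratio in FPKM was 2.06 and 1.75 with vehicle and 1.27 and 1.25 with AICAR. The log2 ratio was lower by 0.59 (SD 0.16 between the vehicle libraries, exact two-sided permutation p = 0.333, the smallest possible).

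For 5 of the 10 genes, GENCODE 29 places the start of another protein-coding gene within 1000 bases on the opposite strand. The start was taken as the outer 5′ end of the annotated gene. Which start the counted transcripts used was not tested. LIG4 and ABHD13, the gene of a hydrolase-like membrane protein, start so close that the exon-free stretch between them is 10 bases, agaagccgct on the strand of LIG4 (chr13:108218369-108218378, GRCh38.p14). ABHD13 had 19.0 and 19.7 CPM with vehicle and 10.4 and 11.2 CPM with AICAR. It fell 1.79-fold, beside the 1.59-fold fall of LIG4 (log2 fold change -0.84 ± 0.08 SE, adjusted p = 8.44e-06 by edgeR). By its outermost annotated start, RAG1 has TRAF6 as such a neighbour, the gene of a ubiquitin ligase of Toll-like and interleukin receptor signalling. TRAF6 had 14.6 and 12.8 CPM with vehicle and 4.73 and 6.13 CPM with AICAR. It fell 2.51-fold, more than RAG1 did (log2 fold change -1.33 ± 0.12 SE, adjusted p = 1.01e-05 by edgeR). Both genes of each of these pairs were thus called lower, as were 19.7% of all tested genes. Whether the changes within a pair are linked was not tested.

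In each of the other pairs 1 of the 2 genes was called by edgeR with TMM factors. PRKDC rose 1.42-fold, while MCM4, a subunit of the replicative helicase, did not pass (log2 fold change 0.10, SE 0.04, adjusted p = 0.0601 by edgeR). MCM4 was called higher under other settings, among them upper quartile factors (0.0435), limma-voom (0.0395), protein-coding genes alone (0.0469) and without vehicle replicate 1 (0.0126). XRCC6 rose 1.15-fold, while DESI1, a peptidase gene, had 0.03 ± 0.05 (SE, edgeR adjusted p = 0.727). XRCC4 was not called, and TMEM167A, a Golgi protein gene, had -0.15 ± 0.05 (SE, edgeR adjusted p = 0.0464), a call lost under 8 of the 15 alternatives, among them leaving out vehicle replicate 2 (-0.10) or AICAR replicate 2 (-0.13). The difference between the changes of 2 neighbours was not tested in any pair.

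**Figure D4:**
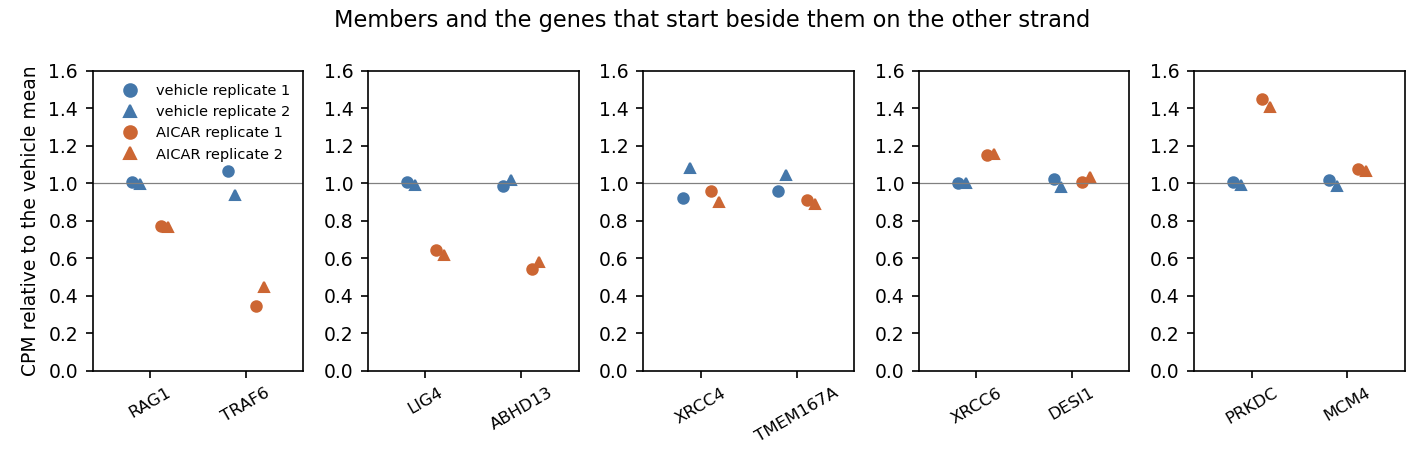
CPM relative to the vehicle mean for 5 genes and their neighbours, in each of the 4 libraries. A neighbour has its outermost annotated start beside that of the gene, on the opposite strand. RAG1 with TRAF6 and LIG4 with ABHD13 are lower with AICAR, whereas PRKDC and XRCC6 are higher and further from 1 than MCM4 and DESI1.

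Genes that act beside these 10 were followed through 5 lists of textbook members. Over the lists 53 genes were tested, of which 12 rose, 14 fell and 27 did not pass, against 19.4% higher and 19.7% lower among all tested genes. Scaled by total counts alone, 5 of them were called higher, and limma on FPKM called 1 higher and 7 lower. The calls thus depended on the scaling, the measure and the test. Over all tested genes, rises numbered 1390 with total counts alone in place of 2645. Limma on FPKM with 0.1 added called 591 of all tested genes higher and 1285 lower, in place of 2645 and 2683.

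Of 11 tested genes that assist or regulate RAG, 4 rose and 3 fell (median 0.02, adjusted p of 9.11e-05 to 0.0291 by edgeR). The falls were FOXO1, which activates RAG transcription in early B cells, from 72.0 ± 2.26 to 55.8 ± 2.69 CPM (SD, n = 2; log2 fold change -0.37), EBF1, a factor that specifies B cells (-0.20), and IKZF1, the gene of Ikaros (-0.19). The rises were TCF3, which encodes the E2A proteins, from 333 ± 14.7 to 423 ± 10.0 CPM (SD, n = 2; 0.35), VPRBP, also known as DCAF1, a ubiquitin ligase adaptor that binds RAG1 (0.17), PAX5, the B cell identity factor (0.14), and HMGB2, a DNA-bending cofactor of RAG cleavage (0.12). The calls of PAX5 and VPRBP were lost with total counts alone (0.08 and 0.11), and without vehicle replicate 2 (0.07 and 0.10). PAX5 also lost its call without AICAR replicate 1 (0.13), VPRBP without AICAR replicate 2 (0.13), and HMGB2 without either (0.13 each). On the FPKM scale EBF1 had -0.06 (limma adjusted p = 0.666 with 0.1 added), its groups overlapped, and its apparent length was 2012 and 2135 bases with vehicle and 1912 and 1702 with AICAR. IKZF1, TCF3, PAX5, VPRBP and HMGB2 kept their direction in FPKM but not their calls (limma adjusted p = 0.207, 0.0985, 0.708, 0.268 and 0.192). FOXO1 kept its call (limma adjusted p = 0.0418). With total counts alone 1 gene of this list was called higher, and the call of HMGB2 was also lost (0.065).

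Of 10 tested accessory factors of end joining, 2 rose, 2 fell and 6 did not pass (median -0.04, adjusted p of 0.000902 to 0.0279 by edgeR for the called genes). C9orf142, now PAXX, an XRCC4 relative that binds Ku, rose by 0.24 on the log2 scale. C7orf49, now CYREN, an inhibitor of end joining that binds Ku, fell by 0.28 and ERCC6L2 by 0.17. APLF, a scaffold that binds Ku and XRCC4, had 0.18 (edgeR adjusted p = 0.315) and POLM, a polymerase that fills gaps at the join, had -0.12 (adjusted p = 0.0701). POLM was called lower with total counts alone (-0.18) and without vehicle replicate 2 (-0.17). Without AICAR replicate 2 the calls of C9orf142 (0.19) and ERCC6L2 were lost. POLL was counted too low to be tested. With DESeq2 none of the list was called higher and 1 lower, and limma on FPKM gave the same counts.

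Of 13 tested genes of break sensing and end protection, 2 rose, 3 fell and 8 did not pass (median -0.09, adjusted p of 0.000173 to 0.0274 by edgeR for the called genes). MDC1, which binds phosphorylated histone H2AX at breaks, rose 1.37-fold from 12.4 ± 1.10 to 17.0 ± 1.29 CPM (SD, n = 2), and MAD2L2, a subunit of the shieldin complex, rose by 0.17 on the log2 scale. C20orf196, now SHLD1, another shieldin subunit, fell 1.51-fold from 9.81 ± 0.07 to 6.51 ± 0.70 CPM (SD, n = 2). RIF1, which acts with 53BP1 against end resection, fell by 0.29 and NBN, of the complex that senses breaks, by 0.12. TP53BP1, the gene of 53BP1, had 0.08 (edgeR adjusted p = 0.281). The call of NBN was lost without vehicle replicate 2 or either AICAR replicate. With total counts alone 1 of these genes was called higher and 5 lower. In FPKM, MDC1, MAD2L2 and RIF1 kept their direction but not their calls (limma adjusted p = 0.231, 0.107 and 0.136 with 0.1 added). C20orf196 and NBN kept theirs (limma adjusted p = 0.0179 and 0.0462).

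Alternative end joining, which joins ends through short homologies when the classical pathway is lacking, had 4 of 7 tested genes higher and 1 lower (median 0.17, adjusted p of 2.71e-05 to 0.00624 by edgeR for the called genes). PARP1, which detects breaks, rose 1.28-fold from 578 ± 24.2 to 739 ± 6.16 CPM, whereas POLQ, its dedicated polymerase, fell 1.44-fold from 35.0 ± 1.24 to 24.2 ± 0.16 CPM (SD, n = 2). XRCC1, a scaffold of ligation, the ligase gene LIG1 and the flap nuclease gene FEN1 also rose, with log2 values of 0.23, 0.23 and 0.17. The value of LIG1 was -0.004 in FPKM. On that scale POLQ, XRCC1 and FEN1 kept their direction but not their calls (limma adjusted p = 0.0721, 0.2 and 0.189 with 0.1 added). PARP1 kept its call (limma adjusted p = 0.0234). Without vehicle replicate 2 LIG1 had 0.14, still called, and FEN1 lost its call without AICAR replicate 2 (0.14). LIG3 had 0.12 (edgeR adjusted p = 0.135; called without vehicle replicate 1 or AICAR replicate 2, 0.19 and 0.18) and RBBP8, the resection factor CtIP, -0.03 (adjusted p = 0.562). With total counts alone 2 of the 7 were called higher.

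Homologous recombination, which copies an intact sister strand, had no gene of 12 tested higher and 5 lower (median -0.05, adjusted p of 7.88e-06 to 0.00116 by edgeR for the called genes). PALB2, which links BRCA1 to BRCA2, fell 1.63-fold from 28.3 ± 0.51 to 17.4 ± 0.87 CPM, and BRCA2, a mediator of strand exchange, fell 1.49-fold from 34.3 ± 0.89 to 23.0 ± 1.76 CPM (SD, n = 2). In FPKM the BRCA2 groups overlapped (5.24 and 4.95 with vehicle, 5.69 and 4.06 with AICAR), and its apparent length was 6937 and 6802 bases with vehicle and 4214 and 5204 with AICAR. RAD52 fell 1.55-fold, XRCC2 1.51-fold and BARD1 1.18-fold. In FPKM the call of RAD52 was lost (limma adjusted p = 0.149 with 0.1 added), and 3 genes of this list in place of 5 were called lower. RAD51C and XRCC3 had 0.10 and 0.07 and did not pass.

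**Figure D5:**
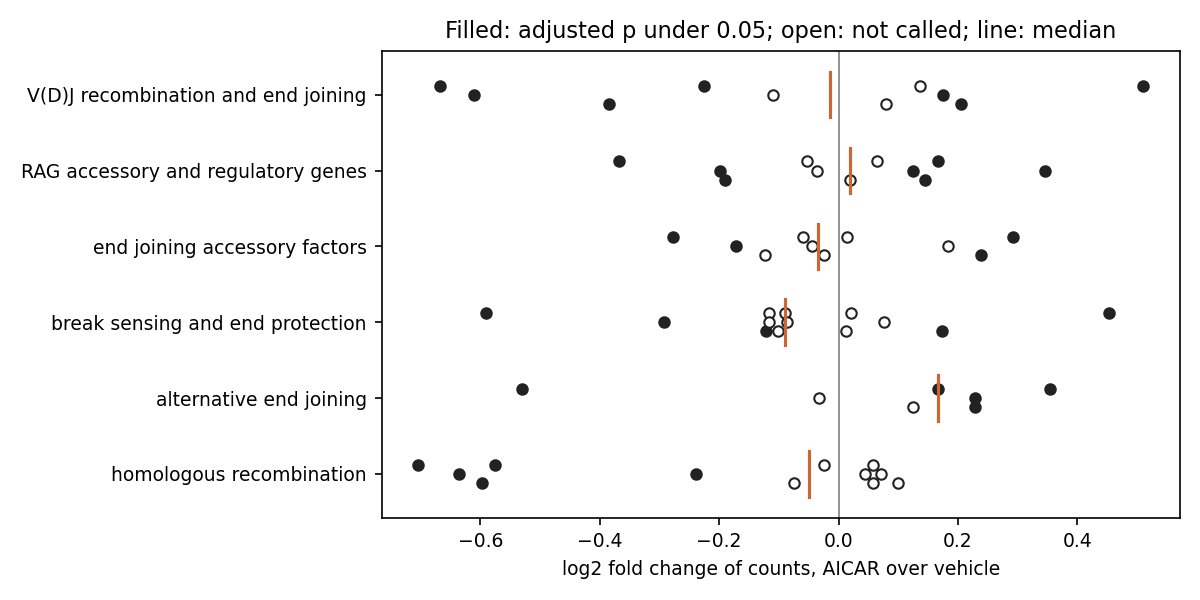
Log2 fold change of the counts, AICAR over vehicle, of each tested gene in the 10 genes of V(D)J recombination and end joining and in 5 lists of related genes. Filled points passed an adjusted p of 0.05 and the vertical line is the median, which lies between -0.09 and 0.17 in every list. No gene of homologous recombination was called higher.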

How the data were processed

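Per the labels' protocols, the 4 NALM6 libraries came from a kit for stranded total RNA and were read as single reads of 75 bases. The tools and build in the submitters' processing notes, listed without order or settings, are hg19, RSEM 1.2.31, STAR 2.5.3a, Trimmomatic 0.32 and DESeq2. No annotation is named there. The deposited expected counts are estimated reads per gene, not normalized, per the file headers and values. The deposited FPKM values were scaled for transcript length and depth by the authors. A deposited table also holds the authors' log2 fold changes with q-values, used only for which of the 10 genes are under 0.05.

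Expected counts were rounded and filtered with filterByExpr (minimum count 10, minimum total 15), scaled with TMM factors and tested, two-sided, by quasi-likelihood in edgeR 4.0.16 under R 4.3.3. P-values were adjusted over 13626 genes (Benjamini-Hochberg). The SE is the size of the log2 fold change divided by the root of the test's F. FPKM was tested with limma 3.58.1 on log2(FPKM + 0.1) and log2(FPKM + 1), which understate changes of low genes. Replicates differed by more than counting noise (chi-square per gene 8.36 for vehicle and 2.96 for AICAR), so none was taken for a copy of another. The procedure was tested on simulated data. The simulation gave every gene the same spread and changed few genes, unlike these data, so it does not measure error rates here.

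The genes and lists were chosen with earlier results of these data known. From each list the 3 tested genes with the highest and the 3 with the lowest change are named, and other genes of the lists were named after their values were seen. Some genes that the rule names are not reported here. Head-to-head neighbours came from GENCODE 29, which is on GRCh38, and start windows from RefSeq, by symbol. Figures were drawn with matplotlib 3.10.9.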

Additional observations from a re-analysis of the deposited data

How the results depend on the processing

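Of 150 values of the 10 genes under the 15 alternatives, 143 kept their direction and their side of the threshold, 6 lost a call, 1 gained one and none changed sign. The 6 were RAG2, XRCC5 and XRCC6 under both limma fits to FPKM, which left 1 gene higher in place of 3 and 3 lower in place of 4, and the gain was XRCC4 without vehicle replicate 1. Leaving out each library in turn gave 3 higher throughout and 4 to 5 lower. The 2 groups share replicate numbers, but same-numbered libraries did not deviate together (correlation -0.05), and a replicate block gave 3 higher and 4 lower of the 10 genes and 2708 and 2721 of all genes, in place of 2645 and 2683. The block also called MCM4 higher (0.10, adjusted p = 0.0331 by edgeR). Over all genes, total counts alone gave 1390 higher, FPKM + 0.1 gave 591 higher and 1285 lower and FPKM + 1 gave 603 and 1289, and leaving out a library gave 2033 to 2616 higher and 2335 to 2643 lower. The lists together had 5 higher with total counts alone in place of 12, and 1 higher and 7 lower with either FPKM fit, and 9 to 13 higher and 12 to 15 lower without a library. Rises among the RAG regulators numbered 1 in place of 4 with no low-count filter or a mean of at least 10 CPM, and 2 without vehicle replicate 2 or either AICAR replicate. In end joining accessory factors, the 2 falls became 1 with no filter, with DESeq2 or without AICAR replicate 2. In break sensing, 6 in place of 3 fell with a mean of at least 10 CPM. The XRCC5 to XRCC6 ratio differed by -0.03 in expected counts, and by -0.15 to -0.07 without a library, against -0.22 to -0.05 for RAG1 to RAG2 and -0.70 to -0.47 for LIG4 to XRCC4. Signs turned for LIG1 in FPKM (-0.004 with either constant) and DESI1 with total counts alone (-0.034), a mean of at least 10 CPM (-0.014) and FPKM (-0.012). Without a library in turn XRCC3 ran from -0.014 to 0.154 and DESI1 from -0.013 to 0.054, negative without AICAR replicate 2 for XRCC3 and without vehicle replicate 2 for DESI1. The causes were not tested. With 2 libraries a group, small changes of the lower genes (XRCC4, NHEJ1) could not be resolved.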
